A study of Mus musculus with 5 samples.

Results

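The genes described here are 5 Notch receptors and targets (Notch1, Notch2, Hes1, Dtx1 and Rbpj) and 5 T-lineage genes (Gata3, Bcl11b, Cd3e, Ptcra and Cd7), 10 of 21887 protein-coding genes. They were taken by name, and their H3K27ac peaks were counted at the gene ends, in the gene bodies and within 100 kb. The peaks came from ChIPmentation, in which Tn5 transposase puts sequencing adapters onto immunoprecipitated chromatin, on mouse bone marrow cells sorted as CD45.2+ Lineage- Sca1+ Kit+ and labelled HSC/MPP, that is, stem cells and multipotent progenitors. All 4 H3K27ac libraries and the 1 input library carried the genotype Mll3/4 deleted, and no other treatment, age or sex is given in the sources used here. The agent or Cre line behind the deletion is also not given in them. The deposited data are 1 list of 22948 peaks for the 4 libraries together over the input, so the values have no replicate error and no comparison between genotypes can be made. In such a bulk list, fewer cells carrying the mark and less of the mark per cell cannot be told apart, and the sequencing depth is unknown.

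Notch receptors are cleaved after they bind ligands on a neighbouring cell, and the released intracellular part joins the DNA-binding protein Rbpj to switch on targets such as Hes1 and Dtx1. In the thymus this signal directs incoming progenitors to the T lineage, where Gata3 and then Bcl11b are induced, followed by T-cell receptor components such as Ptcra and Cd3e. H3K27ac, acetylated lysine 27 of histone H3, marks active promoters and enhancers, and Mll3 and Mll4 are methyltransferases that act mainly at enhancers.

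Peaks at the gene ends were few in both groups of genes, while all peaks in the bodies were at Notch1, Notch2, Rbpj and Gata3. Hes1 alone of the 10 had a peak within 1 kb of a gene end, against 36.2% of all protein-coding genes. That 1 became 0 with a window of 0.5 kb, with the summit required in the window, and in lists held to −log10 q 5 or more or to signal value 4 or more. With the smaller window or the summit rule, the Hes1 peak counted as a body peak instead. Peaks inside the gene and away from its ends were found at 4 of the 10, namely Notch1, Notch2, Rbpj and Gata3, against 16.6% of protein-coding genes. Taken by group, 4 of the 5 Notch genes and 1 of the 5 T-lineage genes had a peak at an end or in the body, against 43.8% of protein-coding genes. Dtx1, Bcl11b, Cd3e, Ptcra and Cd7 had none. Held to −log10 q 5 or more, the groups were equal, with 1 gene each, Rbpj and Gata3. The shares of all protein-coding genes were not computed for the stricter lists. The 5 genes on each side were chosen by name and are not replicates, so this difference was not tested. The groups also differ in gene length, with 4 Notch genes and 2 T-lineage genes of at least 30 kb.

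The table of gene ends hides a start at 2 members, and this bears on Gata3. The RefSeq promoter table (GRCm38.p6) covers 8 of the 10 members, and Hes1 and Cd7 are not among them. Its Gata3 start lies 9.35 kb inside the high end of the annotated gene, and its 2 Rbpj starts lie inside that gene as well. When peaks were sought within 1 kb of these starts, an alternative chosen after the data were seen, Gata3 was the only 1 of the 8 members to have any. Among the 17492 protein-coding genes with an entry, 38.0% did. The promoter windows shown here, from 250 bases before the start to 50 after it, are those of Gata3, where the peaks lay on both sides of the start, and of Rbpj, Bcl11b and Ptcra, which had no peak there. Capitals mark 6-letter motifs on either strand: TGGGAA (the core that Rbpj binds), CCGGAA (ETS factors) and CTTTGA (Tcf1 and Lef1). Each window is given 5′ to 3′ on the strand of its gene.
Gata3, chr2:9878551-9878850, minus strand: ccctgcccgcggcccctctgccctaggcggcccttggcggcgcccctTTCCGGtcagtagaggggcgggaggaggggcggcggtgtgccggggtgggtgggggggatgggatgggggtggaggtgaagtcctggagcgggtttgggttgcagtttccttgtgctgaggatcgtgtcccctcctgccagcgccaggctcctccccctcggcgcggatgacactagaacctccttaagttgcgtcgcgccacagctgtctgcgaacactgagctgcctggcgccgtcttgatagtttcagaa
Rbpj, chr5:53590096-53590395, plus strand: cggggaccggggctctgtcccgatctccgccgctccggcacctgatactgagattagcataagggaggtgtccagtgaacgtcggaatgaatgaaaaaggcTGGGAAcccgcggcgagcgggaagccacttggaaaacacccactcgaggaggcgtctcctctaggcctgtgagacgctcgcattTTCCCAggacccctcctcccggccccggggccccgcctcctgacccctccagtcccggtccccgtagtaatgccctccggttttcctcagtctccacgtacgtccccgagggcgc
Bcl11b, chr12:108003365-108003664, minus strand: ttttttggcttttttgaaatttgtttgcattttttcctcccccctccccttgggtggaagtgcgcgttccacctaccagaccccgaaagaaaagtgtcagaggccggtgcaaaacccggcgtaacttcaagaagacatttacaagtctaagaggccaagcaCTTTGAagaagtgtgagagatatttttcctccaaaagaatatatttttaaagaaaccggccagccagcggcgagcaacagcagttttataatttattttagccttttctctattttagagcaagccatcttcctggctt
Ptcra, chr17:46763663-46763962, minus strand: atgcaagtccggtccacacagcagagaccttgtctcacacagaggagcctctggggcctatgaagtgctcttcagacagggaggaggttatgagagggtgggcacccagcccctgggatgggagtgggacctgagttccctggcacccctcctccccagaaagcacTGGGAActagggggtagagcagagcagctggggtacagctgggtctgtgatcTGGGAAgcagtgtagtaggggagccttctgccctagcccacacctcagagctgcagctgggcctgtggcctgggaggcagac

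Hes1 encodes a repressor of the basic helix-loop-helix family and is a direct Notch target. Its peak, chr16:30065990-30066734, lay inside the 2440 bp gene and reached the window at the low end. The peak was 745 bp wide and weak: its signal value, the authors' enrichment of the H3K27ac pileup over background at the summit, was 2.90, and its −log10 q was 2.16. In the whole list the median signal value was 3.27, and the Hes1 peak stood at percentile 36.8. For 10.9% of the genes with end peaks, even the strongest such peak was weaker than this. No summit lay within 100 kb of Hes1, and no other protein-coding gene lay there. The nearest peak outside the gene was 119.4 kb below its low end, with a signal value of 3.08.

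Inside the gene, the 2 receptors had peaks in the body and none at an end. Notch1, which drives T-lineage entry, had 1 peak, chr2:26492819-26493409, with a signal value of 3.26 at a −log10 q of 4.28. Its summit lay 10.6 kb downstream of the start, in the part of the 45.9 kb gene nearer to the start. Notch2, which is used in marginal zone B cells among others, had 4 peaks. Of these, 3 stood together in 2.27 kb, at chr3:98062211-98064478, with signal values of 2.84, 2.90 and 2.51, and summits 48.8 to 50.5 kb downstream of the start. The other Notch2 peak, chr3:98143854-98145095, had a signal value of 2.94 and lay 5.38 kb from the high end of the gene. All 4 values were under the list's median. The weakest had a q-value of 0.0604, the only 1 above 0.05 among the 10 peaks at an end or in a body of a member.

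Rbpj, the DNA-binding partner of all Notch receptors, had a stronger peak. It lay at chr5:53566320-53567116, 11.1 kb from the low end of the 101.7 kb gene and 23.5 kb upstream of the nearer of the starts given in the promoter table. Its signal value was 5.14 and its −log10 q 9.80, at percentile 80.5 of the list. No peak lay within 1 kb of either start, and no summit lay within 100 kb outside the gene. Dtx1, an E3 ligase induced by Notch signalling, had no peak at its ends or in its 31.7 kb body.

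Gata3, a zinc finger factor required for T-cell commitment, carried the widest acetylation of the 10 genes. Its 3 body peaks covered 10463 bp of the stretch chr2:9868575-9879477. The widest, chr2:9868575-9875685, was 7111 bp wide, at percentile 99.6 of all widths, with a signal value of 5.48 at a −log10 q of 11.3. The next, chr2:9875879-9878499, had a signal value of 5.94 at a −log10 q of 13.7, the highest signal value and −log10 q at an end or in a body of any member. The third, chr2:9878747-9879477, had a signal value of 3.55 at a −log10 q of 3.79. Between the last 2 peaks was a gap of 247 bp, and the start lay in this gap, 101 bp from the downstream peak and 147 bp from the upstream peak. The acetylated stretch thus ran from just before the start into the gene. Other T-lineage members had nothing comparable: Bcl11b, which fixes T-cell commitment, had no peak in its 93.7 kb body, and none was found at an end or in the body of Cd3e (T-cell receptor complex), Ptcra (the pre-T-cell receptor alpha chain) or Cd7 (a surface glycoprotein of early T and NK cells).

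**Figure D1:**
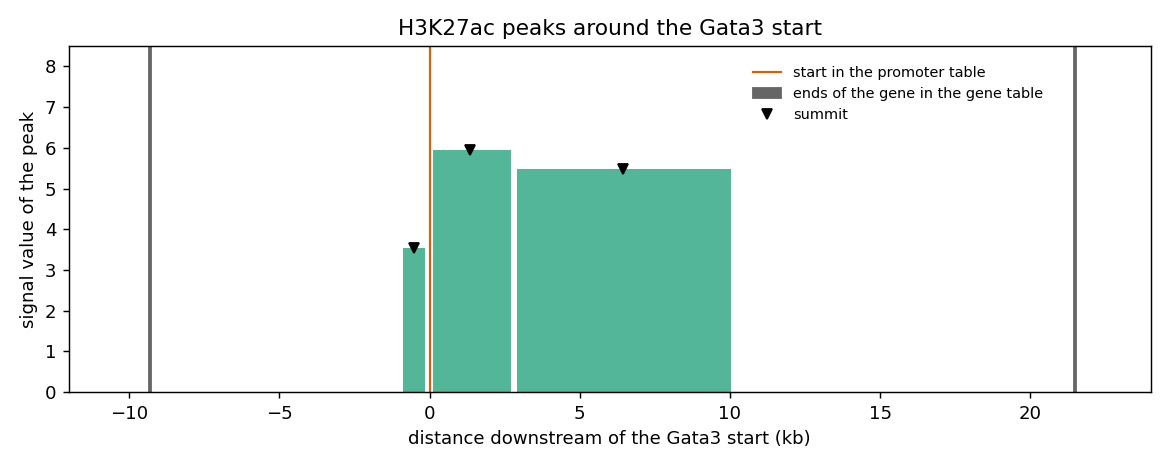
H3K27ac peaks at Gata3, by distance in kb downstream of the start (horizontal) and signal value (vertical); each bar spans 1 peak, the triangle is its summit and grey lines are the gene's ends. The start falls in the 247 bp gap between the peaks with signal values of 3.55 and 5.94.

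Body peaks are more often found in longer genes. Of the 6 members of at least 30 kb (Notch1, Notch2, Dtx1, Rbpj, Gata3 and Bcl11b), 4 had a body peak. By group, these were 3 of the 4 long Notch genes and 1 of the 2 long T-lineage genes. Among all 6045 protein-coding genes of 30 to 150 kb, a range chosen after the data were seen, 32.4% did. The 4 members shorter than that (Hes1, Cd3e, Ptcra and Cd7) had none.

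Outside the genes, 23 summits lay within 100 kb of a member, and 7 of the 10 members had at least 1, against 72.2% of protein-coding genes. The Notch genes had 5 of these peaks (median 0 a gene) and the T-lineage genes 18 (median 2), while the median of all protein-coding genes was 2 (interquartile range 0 to 5). Of the 18, 11 lay around Ptcra, and 96.5% of protein-coding genes had fewer than that. Some of these 11 stood within 1 kb of each other, so they are not 11 separate sites. Peaks with q-values above 0.05 (0.0823 and 0.0604) were among them. Ptcra also has 11 other protein-coding genes within 100 kb, the most of the 10 members. Notch2, Hes1 and Rbpj had no such summit. The counts for the Notch and T-lineage genes became 1 and 10 with 50 kb, and 18 and 42 with 200 kb. Under −log10 q 5 or more they were 3 and 6. Medians over all protein-coding genes were not computed at these settings.

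None of the 23 summits had a member as its nearest protein-coding gene. Over all protein-coding genes, the gene itself was the nearest in 5.45% of such pairs of a gene and a peak. Of the 23 peaks, 15 reached within 1 kb of an end or a table start of another gene. The other 8 lay inside or between genes, away from these windows.

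The strongest of them was at Ptcra, 92.7 kb beyond the high end of the gene. This peak, chr17:46854884-46858449, had a signal value of 12.4 at a −log10 q of 49.6, at percentile 99.3, and lay inside Bicral. The peaks nearest to Ptcra were weaker, with a signal value of 3.52 at 4.39 kb, reaching the end of Cnpy3, and of 2.79 at 9.27 kb, reaching the end of 2310039H08Rik. At Cd7, the strongest was chr11:120988070-120991709, 46.0 kb away at the end of Csnk1d, with a signal value of 8.91, and the other, nearest to Sectm1a, had 4.44. At Notch1 the strongest was chr2:26443942-26445187, 13.0 kb below the low end and at the start of Sec16a, with a signal value of 8.82. The other Notch1 peak, with 4.56, lay at the ends of Entr1 and Pmpca.

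Cd3e lies beside Cd3d and Cd3g, which encode further chains of the same complex. Its strongest peak within 100 kb had a signal value of 7.04 and lay at the end of Ube4a, 33.4 kb away. The nearest, chr9:44985875-44987329, was 11.8 kb below the low end, with a signal value of 4.90 at a −log10 q of 9.06. It lay at the end of Cd3d that is away from its table start, and on the downstream side of Cd3e as well. The third, at Atp5l, had 3.25.

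At Dtx1 the strongest peak had a signal value of 5.14 and lay 67.4 kb away, at the ends of Rita1 and Ddx54. The others, at Tpcn1 and Oas3, had 3.15 and 2.93. The 1 peak within 100 kb of Gata3, 59.5 kb beyond its high end and inside Taf3, had 2.97, and the 1 peak near Bcl11b, 70.0 kb beyond its high end and nearest to Setd3, had 2.42 with −log10 q of 1.16.

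**Figure D2:**
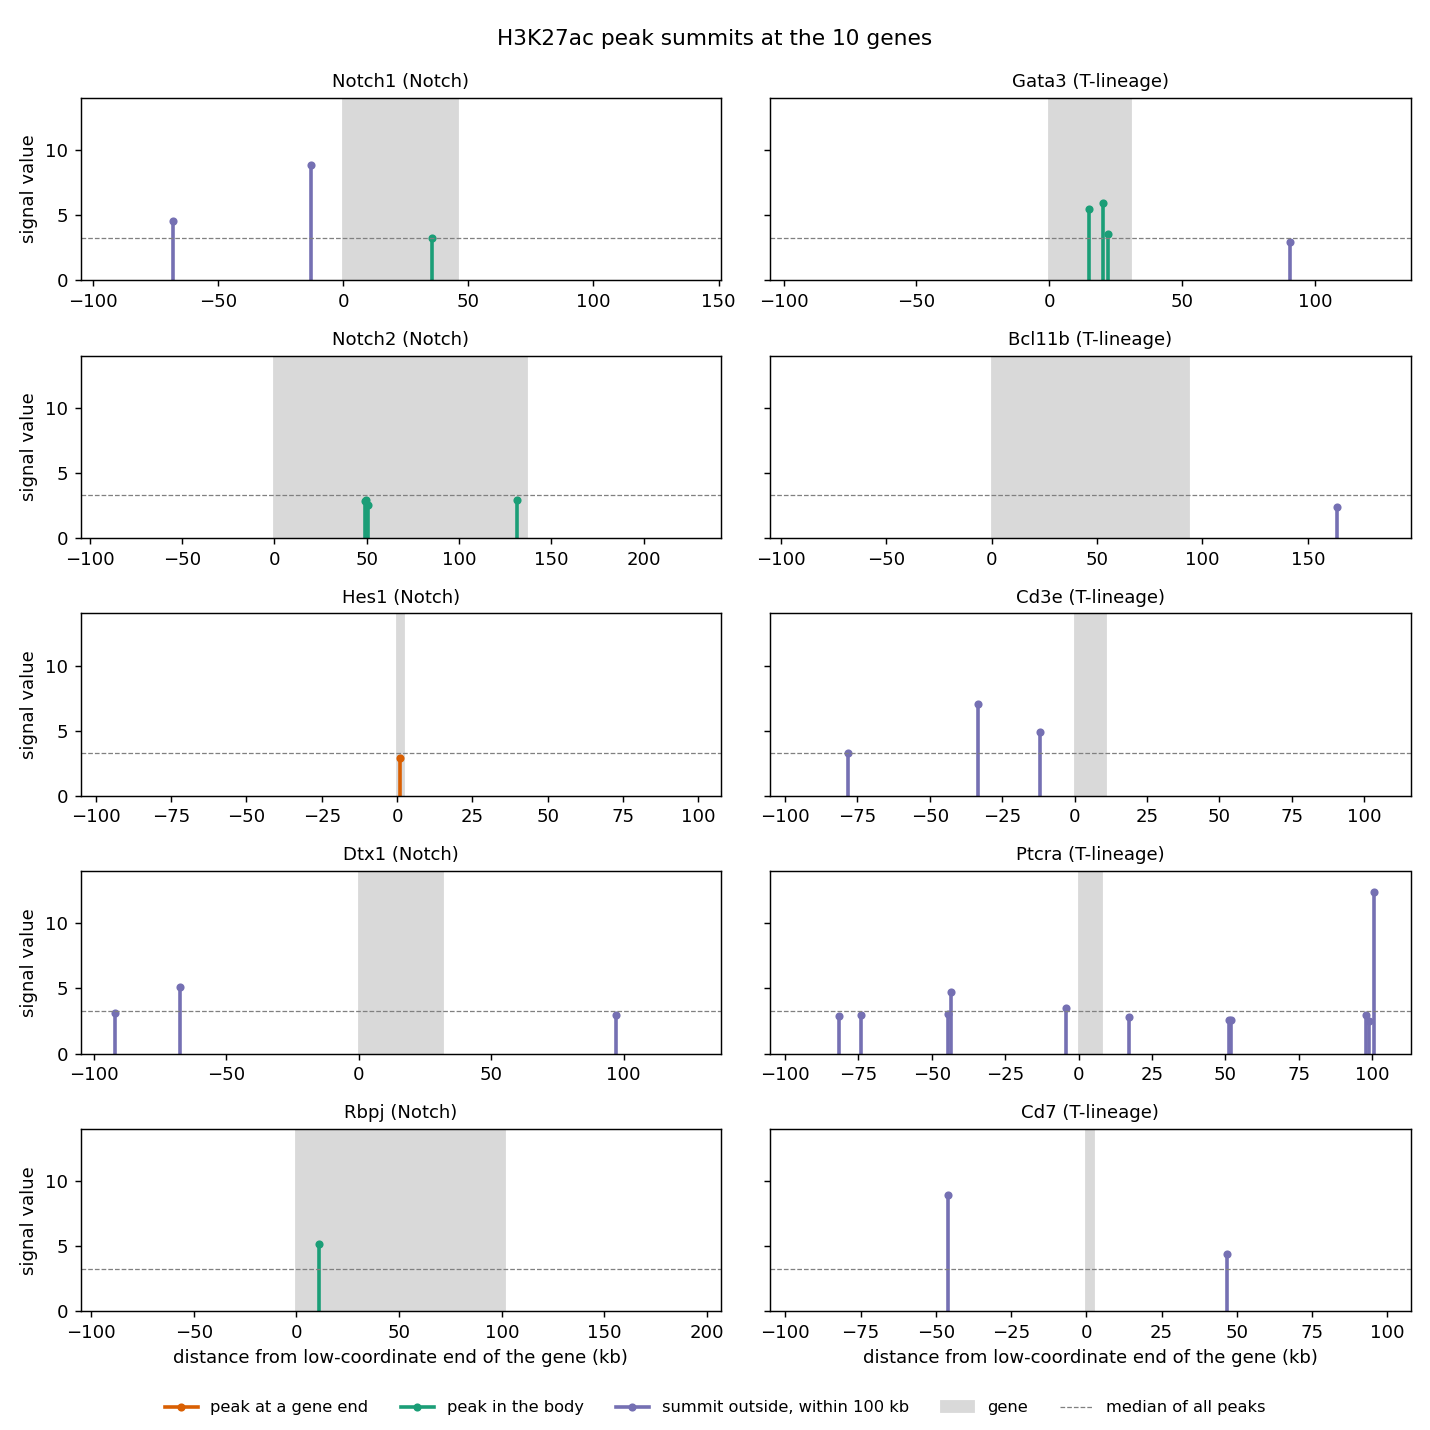
Summits within 100 kb of each of the 10 genes, by distance from the gene's low-coordinate end in kb (horizontal) and signal value (vertical); the grey box is the gene, colours give the place of the peak and the dashed line is the median of all peaks, 3.27. Peaks inside the gene stand at Notch1, Notch2, Hes1, Rbpj and Gata3, and the tallest, 12.4, lies outside Ptcra.

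**Figure D3:**
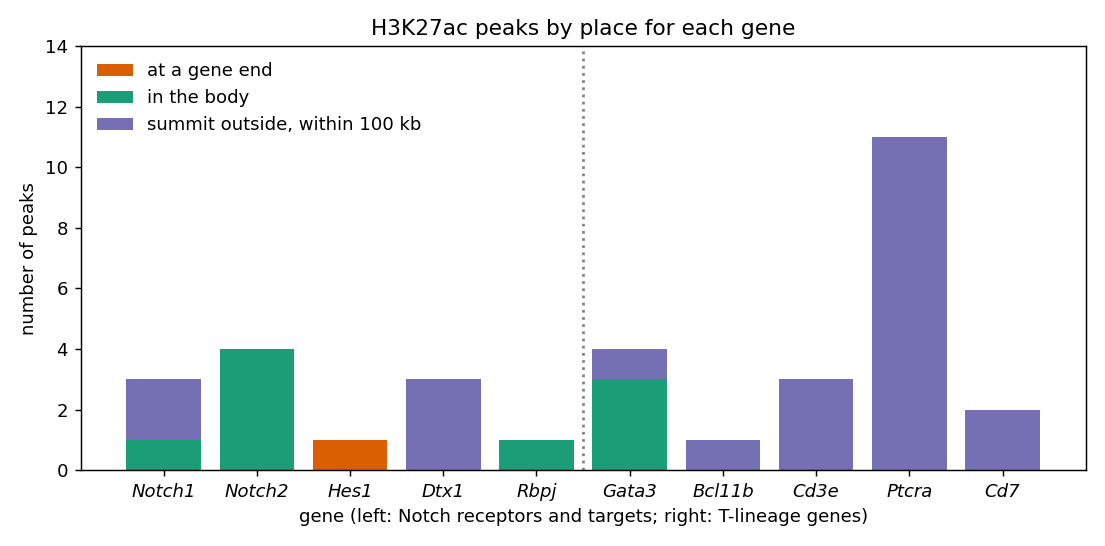
Number of H3K27ac peaks (vertical) for each of the 10 genes (horizontal), stacked by place: at a gene end, in the body, or with a summit outside and within 100 kb. Ptcra has 11 peaks, all outside the gene, and Notch2 has 4, all in the body.

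Enhancers of Gata3 and Bcl11b active in T cells are known to lie far beyond these windows, on the downstream side. Between 100 kb and 1 Mb from the gene, Gata3 had 16 summits and Bcl11b 18, against a median of 21 over all protein-coding genes (interquartile range 11 to 33). Both genes lie on the minus strand, so their downstream side is towards lower coordinates. On that side Gata3 had 4 summits, at distances of 263.5, 373.6, 494.8 and 785.1 kb, and each had Gata3 as its nearest protein-coding gene. The strongest of the 4, at 263.5 kb, had a signal value of 3.27 at a −log10 q of 3.22. Those at 494.8 and 785.1 kb had −log10 q of 0.799 and 1.22, that is, q-values above 0.05. Bcl11b had 1 downstream summit, at 264.3 kb, with a signal value of 3.64 at a −log10 q of 4.38. The other 17 were on its upstream side, where the strongest, 10.5, lay in Ccnk. Hes1 had 14 summits in this range, and 1 of them had Hes1 as the nearest gene. For the remaining 7 members the number ran from 18 (Notch2 and Dtx1) to 64 (Notch1), and none of these peaks had the member as its nearest gene. How often this holds over all protein-coding genes was not computed for this range, so these counts cannot be called particular to the members.

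Promoters rich in CpG dinucleotides more often had a peak. Of the 12067 windows with 10 or more CpG, 57.1% had a peak within 1 kb of the start, against 11.6% of the 9196 windows with fewer. Notch1 (23 CpG), Notch2 (41), Dtx1 (26) and Rbpj (26 and 28 in overlapping windows) were in the richer class and had no peak there. Gata3, with 22, was in this class and had 2. Bcl11b (9), Cd3e (8) and Ptcra (1) were in the poorer class and had none. Bcl11b and Cd3e lay just under the limit of 10, and of windows with 5 to 9 CpG 21.7% had a peak, against 6.40% of those with 0 to 4.

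**Figure D4:**
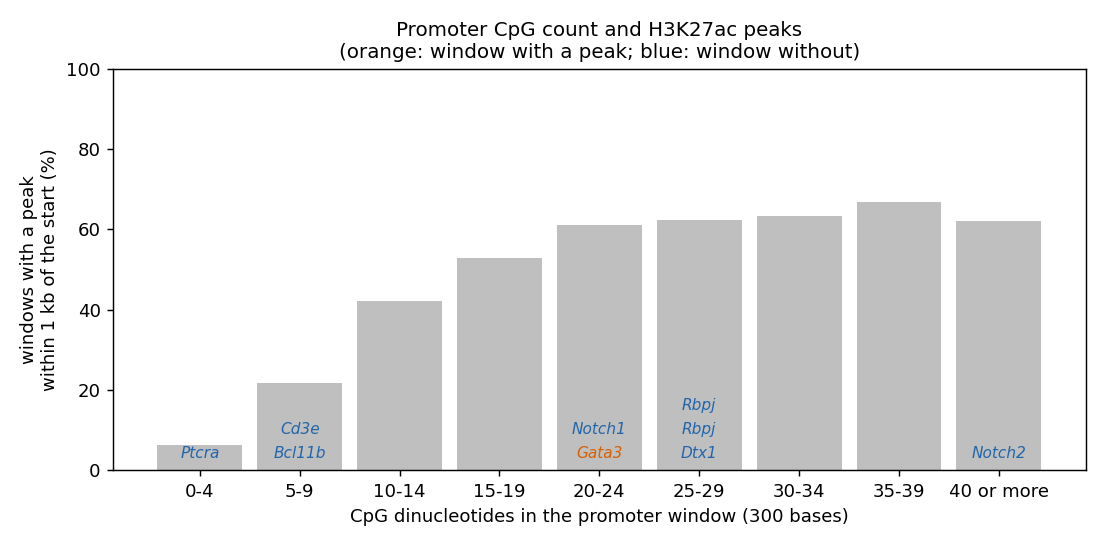
Share of promoter windows with a peak within 1 kb of the start (vertical, percent) by number of CpG dinucleotides in the 300-base window (horizontal); member names stand in their class, with Rbpj shown for each of its 2 starts. Gata3 alone among the named windows had a peak.

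The motif TGGGAA was found in the windows of Ptcra (2 matches), Rbpj (2 and 1 in its overlapping windows) and Cd3e (1), and 24.5% of all 21263 windows hold it. CCGGAA was found in the Gata3 window (1 match, as TTCCGG), and 18.7% of windows hold it. CTTTGA was found in the Bcl11b window (1 match), and 14.4% of windows hold it. No member's window held the GATA-factor motif AGATAA, which 9.65% of windows hold. The same was true of its second form TGATAA, held by 7.60% of windows, and of the Runx-factor motif TGTGGT, held by 15.0%. These matches describe letters in the windows and were not set against binding data.

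Within a wider list of 52 Notch pathway genes that includes the 5 Notch members, peaks at the ends were unevenly spread over roles. Of the other 47 genes, 30 had a peak at an end, against 36.2% of protein-coding genes. Under −log10 q 5 or more, the count over all 52 fell from 31 to 19. The share of all protein-coding genes was not computed for that stricter list. Ligands had 1 of 5 (Jag1, signal value 2.45), with none at Dll1, Dll3, Dll4 and Jag2. The Jag1 peak had a −log10 q of 0.930, that is, a q-value above 0.05. Receptors had 1 of 4: Notch4 had a signal value of 2.75, at an end away from its table start, and Notch3 had none. Targets had 2 of 8. These were Hes1 and Hes5, whose peak (8.23) also reached an end of Pank4, while Hey1, Hey2, Heyl, Nrarp, Dtx1 and Il2ra had none.

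The other 5 lists of the pathway had higher counts, but each holds 5 to 9 genes and the difference between lists was not tested. Receptor processing had 7 of 9 genes, with high values at the gamma-secretase gene Psenen (7.93, shared with U2af1l4) and at the protease gene Furin (4.92, shared with Fes), with none at Aph1a and Aph1b. Glycosylation of the receptors had 3 of 5, at Mfng (4.96), Pofut1 (4.01, shared with Plagl2) and Lfng (2.74), with none at Rfng and Poglut1. In the nuclear complex, Ep300 (7.62), Maml1 (7.13) and Kat2b (5.84) led the 5 of 6 with a peak, and Rbpj was the gene without. All 6 corepressor genes had a peak, led by Kdm5a (9.83, shared with Ccdc77) and Tle3 (4.99). Turnover and trafficking had 6 of 9, led by Mib1 (9.37), Fbxw7 (7.96) and Itch (4.71), with none at Numb, Numbl and Neurl1a. The strongest end peaks of Furin and Fbxw7 did not reach within 1 kb of a table start. Many of these genes act in most cell types.

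The T-lineage lists, 28 genes with the 5 members, had a peak at an end in 4, all among the 23 other genes, against 36.2% of protein-coding genes. They were Lef1 (8.02) and Tox (2.59) among 8 regulators, and Zap70 (7.002) and Cd3d (4.90) among 10 genes of the receptor complex and its signalling. The regulators without were Gata3, Bcl11b, Tcf7, Ets1, Zbtb7b and Runx3, and the receptor and signalling genes without included Cd3e, Cd3g, Cd247, Ptcra, Lck, Lat and Lcp2. None of the 10 surface genes (Cd7, Cd2, Cd5, Cd6, Cd28, Thy1, Cd4, Cd8a, Cd8b1 and Ctla4) had 1. Body peaks were present at 5 of the 8 regulators, 4 of the 10 receptor and signalling genes and 1 of the 10 surface genes, against 16.6% of all protein-coding genes and 32.4% of those of 30 to 150 kb. The regulators had 16 at Ets1, 10 at Lef1, 5 at Tox, 3 at Gata3 and 1 at Runx3.

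**Figure D5:**
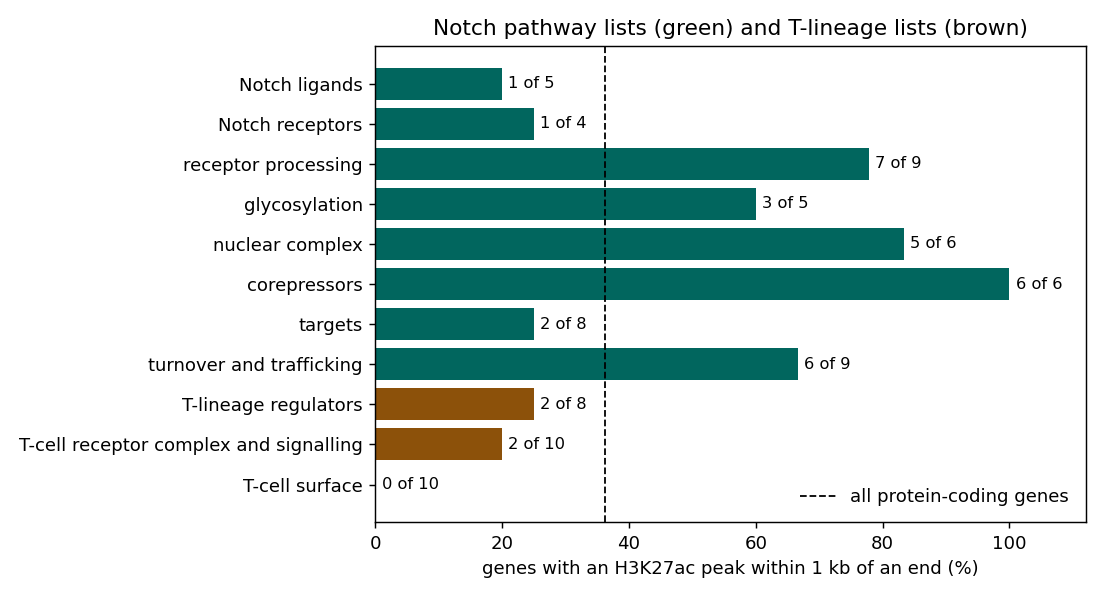
Share of genes with an H3K27ac peak within 1 kb of an end (horizontal, percent) for 8 Notch pathway lists and 3 T-lineage lists, with counts beside the bars; the dashed line is the share of all protein-coding genes, 36.2%. Ligands, receptors, targets and the T-lineage lists lie below the line, and the other 5 lists above it.

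Markers of the sort and of other cell types were checked in the same way. Of 7 sort and progenitor markers, 5 had a peak at an end, including Kit (5.66) and Ptprc (10.8), which encodes CD45. The peak at Cd48, another of the 5, had a −log10 q of 0.799, that is, a q-value above 0.05. Ly6a, which encodes Sca1, and Cd34 had none there or in the body. Within 100 kb they had 18 and 3 summits, against a median of 2 over all protein-coding genes. Among marker lists of other cells, a peak at an end was found for 1 of 10 T-cell, 1 of 7 NK-cell, 8 of 9 B-cell, 0 of 8 myeloid, 2 of 7 erythroid and 2 of 5 dendritic-cell genes, beside 36.2% of all protein-coding genes. The erythroid and dendritic-cell counts lie near that share, and the B-cell count lies far above it. The strongest end peaks of the B-cell genes had a median signal value of 7.26, against 5.66 for the sort markers and 4.71 for all genes with such a peak. They included Blnk (13.6), Ebf1 (12.4, with 53 body peaks) and Pax5 (8.45, with 30 body peaks), although the sort was for lineage-negative cells. Their part in the peaks at the members was not tested. The list does not measure whether the exons of the deleted genes were absent.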

How the data were processed

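H3K27ac was measured in 4 ChIPmentation libraries with 1 input library of the same genotype. The submitters' processing notes name BWA, MACS2 and the build mm10, without roles or versions. The peak caller's settings and the filter behind the list are not given in the sources used here. The deposited file, named as an overlap set over input, has no header and was read in the narrowPeak order. It holds, for the pooled libraries, the authors' peak score (held at 1000), the authors' signal value, read as a ratio of enrichment over background, the authors' −log10 p and the authors' −log10 q. The lowest −log10 p was 2.01, and 4859 peaks had a q-value above 0.05. No value of a single library was used, so no test between samples, interval or replicate check was possible.

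Genes came from a RefSeq table of GRCm38.p6, the same assembly as mm10, in which all 10 members were found. It gives neither strand nor exons, so exon, intron and UTR were not assigned. Strand and start came from the RefSeq promoter table. A peak was at an end when it overlapped, by at least 1 base, the 1 kb on either side of either gene end. It was in the body when it overlapped the gene but no end window. A peak within 100 kb had its summit outside the gene and its end windows. Coordinates are 1-based. Percentiles are mid-ranks over all peaks. The assignment of peaks to places was checked on planted positions.

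The members and gene lists were chosen with earlier results of these data known. All members are named with their peaks. Of each wider list, the 3 genes with the highest signal value at an end and those without a peak there are named, except for genes that are not reported here. Alternatives were other window sizes, summits in place of overlap, stricter peak lists, merged peaks and starts in place of ends. Python 3.11.15, pandas 2.3.3, numpy 2.4.6 and matplotlib 3.10.9 were used.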

Additional observations from a re-analysis of the deposited data

How the results depend on the processing

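Of 66 recomputed counts, 37 stayed within 1.5 times the reported count and 29 moved further. Each stricter setting tests fewer peaks by construction, and no other cause was tested.

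The 1 member with a peak at an end, Hes1, was 0 of the 10 members and 0 of the 5 Notch genes with a window of 0.5 kb, with the summit required in the window, with peaks of −log10 q 5 or more and with peaks of signal value 4 or more. Under the summit rule the Hes1 peak counted in the body instead, so Notch genes with a body peak were 4 and the body peaks of all members 10. With starts in place of ends, which leaves out Hes1, the Notch genes had 0 and the T-lineage genes 1, Gata3. Notch genes with a body peak fell from 3 to 1 under −log10 q 5 or more and to 1 under signal value 4 or more, the remaining gene being Rbpj. The 9 body peaks became 3 in either of these lists and 5 after merging peaks within 1 kb.

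Within 100 kb, the 5 peaks of the Notch genes became 3 under −log10 q 5 or more, 3 under signal value 4 or more, 1 with 50 kb and 18 with 200 kb. The 18 peaks of the T-lineage genes became 6, 6, 10 and 42. Merging peaks within 1 kb left 5 for the Notch genes and 14 for the T-lineage genes. A q-value of at most 0.05 left 5 and 15. Restricting to summits nearest to the member left 0 peaks in either group and 0 members with a peak. With 50 kb, 4 members had a peak in place of 7. Under −log10 q 5 or more, the peaks between 100 kb and 1 Mb fell from 290 to 107. In that list the Notch pathway genes with a peak at an end fell from 31 to 19. Except for starts in place of ends, shares of all protein-coding genes were not computed under the alternatives, so the moved counts have no such reference. The count for the T-lineage lists ran from 3 to 5 over its settings. With starts in place of ends it was 4, of the 18 genes with a promoter entry, and these are not the 4 genes counted by their ends: Gata3 and Runx3 enter, Cd3d drops out, and Tox has no entry. The Notch pathway lists then had 21, of 40 genes with an entry, and all protein-coding genes with an entry had 38.0%.

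No paired analysis was possible because all libraries were pooled in the deposited peaks. For the same reason no library was left out in turn. The depth is unknown, and acetylation below the authors' calling threshold was not measured at the genes without a peak.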
